A study of Homo sapiens with 6 samples.

Results

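PDXP, SH3BP1 and Z83844.3 are 3 overlapping genes on the plus strand of chromosome 22, and together they account for 11 of the 151453 transcripts with a gene in the table and for 3 of its 40173 genes. The genes were selected on measured values of these same libraries, since PDXP stood among the largest falls and Z83844.3 among the largest rises between the groups, and SH3BP1 was added because it shares exons with Z83844.3. Their change between the groups is therefore given as a description. Where a fit across all genes called them, the call is stated beside its background and is no independent test. RNA came from HCT116, a human colorectal cancer cell line. In the MOCK group, wild type for CYGB in the labels, cells carried a control lentivirus, and in the CYGB group a lentivirus that expressed the cytoglobin coding region fused to FLAG. Both populations were selected with puromycin, and each was sequenced as 3 libraries that the labels call biological replicates, with no separate transductions named. The promoter that drove CYGB is not given in the sources used here.

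PDXP encodes pyridoxal phosphatase, also called chronophin, an enzyme of the haloacid dehalogenase (HAD) family. It removes the phosphate of pyridoxal 5′-phosphate (PLP), the active form of vitamin B6, and it dephosphorylates cofilin, the protein that severs actin filaments. The aspartate that carries out catalysis lies near its N-terminus. SH3BP1 encodes a GTPase-activating protein of Rac and Cdc42, with an N-terminal BAR domain that binds membranes, a GTPase-activating domain and a proline-rich C-terminus. Z83844.3 is annotated as a readthrough gene. A readthrough transcript runs past the end of an upstream gene and joins its exons to those of the gene downstream.

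SH3BP1 (ENSG00000100092) lies from 37634654 to 37656119 on chromosome 22 of GRCh38, PDXP (ENSG00000241360) from 37658727 to 37666934, and Z83844.3 (ENSG00000285304) from 37639693 to 37666932. The last exon of SH3BP1-201 (ENST00000357436) ends 2607 bases before the first exon of PDXP-201 (ENST00000215904) begins. Z83844.3-201 (ENST00000451997), the gene's single transcript, has 17 exons and 3123 bases. Of these bases, 1745 (55.9%) lie in exons of SH3BP1-201 and 1378 (44.1%) in the last exon of PDXP-201, and 0 lie outside these 2 transcripts. It takes 16 of the 18 exons of SH3BP1-201, the first only in part, with 154 of its 372 bases. It skips an internal exon of 43 bases and the last exon of 848 bases. It then joins, across an intron of 11681 bases, the last exon of PDXP-201, and it leaves out the first exon of PDXP-201, which has 630 bases. In the GENCODE 29 annotation, 500 codons of its open reading frame come from SH3BP1 exons in the frame of SH3BP1, beginning 64 codons after the SH3BP1 start. The 136 codons of the last SH3BP1 exon, at the proline-rich C-terminus, are left out. The frame at the join is that of PDXP, so the open reading frame of 605 codons ends in the last 104 codons of PDXP. The 191 codons of the first exon of PDXP, which encode the N-terminus with the catalytic aspartate, are not in it.

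**Figure D1:**
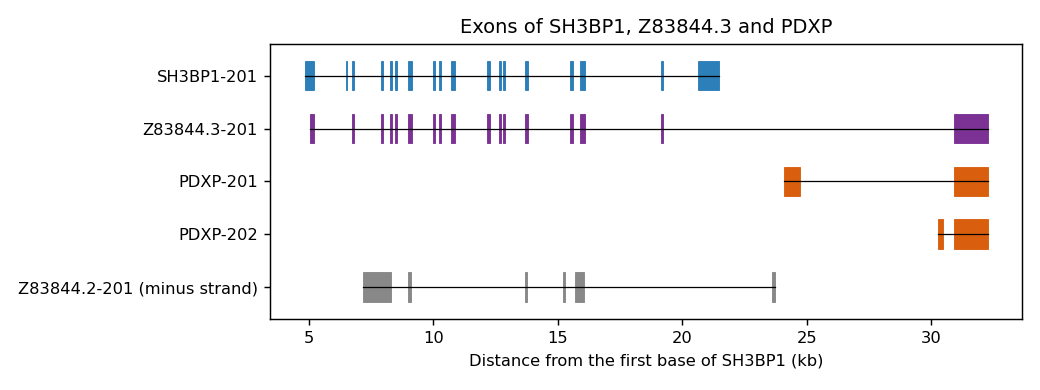
Exons (boxes) and introns (lines) of SH3BP1-201, Z83844.3-201, both PDXP transcripts and the minus-strand Z83844.2-201 in GENCODE 29, by distance in kb from the first base of SH3BP1. Z83844.3 has 16 exons in common with SH3BP1-201, the first only in part, and ends in the last exon of PDXP. It has no part in the first exon of PDXP-201.

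Junctions that tell the 3 main transcripts apart are shown here because the exons on either side of the readthrough junction also belong to the other genes. Each line gives 30 coding bases of the exon upstream of the junction in lower case and 30 coding bases of the exon downstream in capitals, 5′ to 3′ on the plus strand, from the GENCODE 29 transcripts of GRCh38.
Z83844.3-201, exon 16 to exon 17, chr22:37653844-37653873 and chr22:37665555-37665584: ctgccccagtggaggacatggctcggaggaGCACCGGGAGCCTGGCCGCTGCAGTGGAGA
PDXP-201, exon 1 to exon 2, chr22:37659327-37659356 and chr22:37665555-37665584: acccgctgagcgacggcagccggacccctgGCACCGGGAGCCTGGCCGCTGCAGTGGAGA
SH3BP1-201, exon 17 to exon 18, chr22:37653844-37653873 and chr22:37655272-37655301: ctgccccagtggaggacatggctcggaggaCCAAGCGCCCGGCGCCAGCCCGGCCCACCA
The upstream part of Z83844.3-201 is that of SH3BP1-201, and its downstream part is that of PDXP-201. The Z83844.3 and PDXP junctions each occur in 1 transcript of GENCODE 29, and the SH3BP1 junction in 3. Of the 150-base windows of Z83844.3-201, the length of 1 read, 9.95% are absent from the other 10 transcripts of the locus in the table, against 33.9% for PDXP-201 and 29.6% for SH3BP1-201. Z83844.3-201 also differs from SH3BP1-201 at the join that skips the exon of 43 bases. Its 296 windows found in no other transcript therefore do not mark the readthrough junction alone. How reads in the shared exons were divided among transcripts is not given in the sources used here, so each count below is the deposited assignment.

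Gene totals of the 6 libraries ranged from 47193496 to 53531777 counts. Levels are given as CPM, which scale each count to the total of its library. CYGB, the gene carried by the virus, had at most 0.661 CPM in MOCK and at least 545 CPM in CYGB-overexpressing cells, called CYGB cells from here on. Among the epithelial markers EPCAM, KRT8, KRT18 and CDH1, the lowest level in any library was 116 CPM. EPCAM was at 159 CPM in CYGB replicate 3 and at 307 to 341 CPM in the other libraries. CDX2 was at 14.9 to 19.3 CPM and VIL1 at under 1 CPM. PTPRC and PECAM1, markers of leukocytes and endothelium, were at no more than 0.233 CPM, whereas VIM was at 7.40 to 9.17 CPM and COL1A1 at 44.3 to 53.7 CPM.

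PDXP was high in MOCK and low in CYGB cells. Its summed count was 4988, 4682 and 4071 in MOCK replicates 1 to 3, against 321, 361 and 334 in the CYGB replicates. The groups did not overlap, and the highest CYGB library stood far below the lowest MOCK library. After scaling to library size, the level was 91.1 ± 13.4 CPM in MOCK against 6.61 ± 0.431 CPM in CYGB cells (SD, 3 libraries each), a log2 fold change of -3.79 (standard error 0.15), or 13.8-fold lower. In bulk RNA, fewer cells with the transcript and less transcript per cell cannot be told apart. Nearly all counts of the gene were assigned to PDXP-201, which holds the whole coding region, with a share of 99.9 ± 0.0884% in MOCK and 98.4 ± 0.287% in CYGB cells (SD, n = 3 each). The shorter PDXP-202 (ENST00000403251), with an open reading frame of 79 codons inside the last exon, had counts of 10, 6 and 1 for MOCK against 4, 6 and 6 for CYGB, too few to pass the expression filter.

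Z83844.3 showed the opposite picture. It had 77, 76 and 41 counts in MOCK replicates 1 to 3, against 3408, 3748 and 4294 in the CYGB replicates. All CYGB libraries stood above all MOCK libraries. The level was 1.29 ± 0.437 CPM in MOCK against 74.3 ± 7.17 CPM in CYGB cells (SD, 3 libraries each), a log2 fold change of 5.85 (standard error 0.32), or 57.6-fold higher.

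SH3BP1, the upstream gene, had overlapping counts in the groups. They were 3597, 4781 and 3869 in the MOCK libraries, against 4322, 4394 and 3882 in the CYGB libraries. The groups overlapped, and the highest library of the 6 was a MOCK library. The level was 80.6 ± 8.58 CPM in MOCK against 82.0 ± 7.00 CPM in CYGB cells (SD, 3 libraries each), with a log2 fold change of 0.02 (standard error 0.12).

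The full-length SH3BP1-201 held 94.9 ± 0.671% of the counts of SH3BP1 in MOCK and 95.1 ± 2.52% in CYGB cells (SD, n = 3 each). It had counts of 3397, 4572 and 3656 for MOCK against 4181, 4234 and 3579 for CYGB, so its groups overlapped as well. The other 7 SH3BP1 transcripts had 0 to 147 counts in a library. Among them, only SH3BP1-205 (ENST00000469947) and SH3BP1-202 (ENST00000417536) averaged 1 CPM or more in either group. SH3BP1-205, a retained-intron transcript without an annotated reading frame, had counts of 53, 119 and 64 for MOCK against 54, 86 and 147 for CYGB. SH3BP1-202, annotated as a target of nonsense-mediated decay, had counts of 70, 50 and 49 for MOCK against 42, 34 and 53 for CYGB. The groups of both transcripts overlapped.

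The study's methods called a gene where the unadjusted p was 0.01 or less and expression had risen to 2 times or fallen to 0.5 times the control or beyond. At this threshold edgeR's quasi-likelihood test called PDXP lower and Z83844.3 higher and did not call SH3BP1. The same threshold called 0.565% of all 19987 genes tested. At an adjusted p under 0.05 with Benjamini-Hochberg adjustment the same 2 genes were called, where 0.055% of all genes were. With the replicate number as a block, edgeR left 0 of all genes at an adjusted p under 0.05, PDXP and Z83844.3 included. Per transcript, 8 of the 11 transcripts passed the expression filter. PDXP-201 was called lower at the threshold of the methods, with a log2 fold change of -3.79 (standard error 0.18). Z83844.3-201 was called higher, with a log2 fold change of 5.87 (standard error 0.35). The other 6, all of SH3BP1, were not called, against 1.02% called among all 66609 transcripts tested. Because these genes were chosen by this contrast, the calls support nothing about them.

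**Figure D2:**
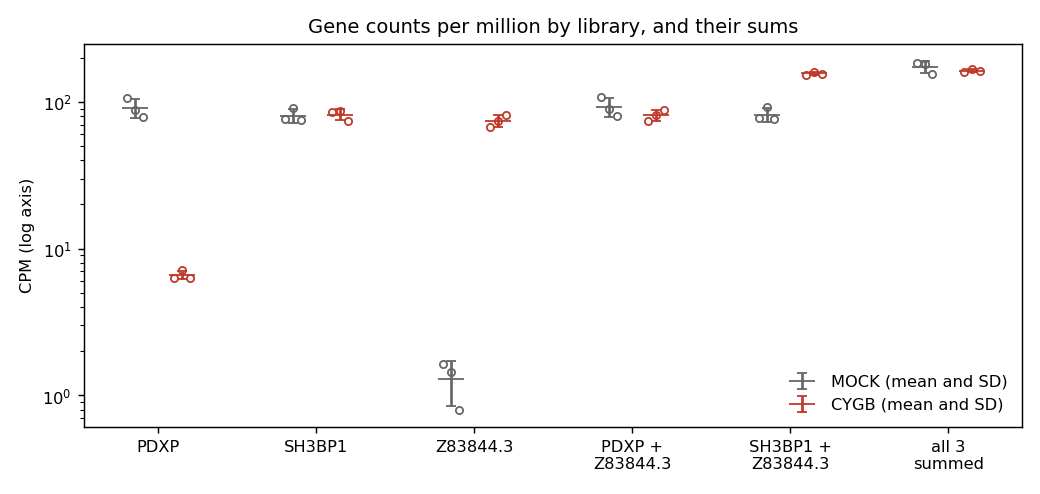
CPM (log axis) of PDXP, SH3BP1, Z83844.3 and their sums in the 3 MOCK (grey) and 3 CYGB (red) libraries; circles are libraries, bars the mean and SD. PDXP and Z83844.3 separate in opposite directions, the sum of both overlaps between the groups, and the sum of SH3BP1 and Z83844.3 is higher in every CYGB library. Sums are not divided by transcript length.

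Sums over the genes depended on which were added. PDXP and Z83844.3, which share the last exon of PDXP, had summed counts of 5065, 4758 and 4112 for MOCK against 3729, 4109 and 4628 for CYGB. These sums overlapped between the groups, at 92.4 ± 13.8 and 80.9 ± 7.15 CPM (SD, n = 3 each) and a log2 fold change of -0.19 (standard error 0.13). SH3BP1 and Z83844.3, which share 16 exons, had summed counts of 3674, 4857 and 3910 for MOCK against 7730, 8142 and 8176 for CYGB. This sum did not overlap, at 81.9 ± 8.74 CPM in MOCK against 156 ± 3.65 CPM in CYGB cells (SD, 3 libraries each), or 1.91-fold higher. All 3 genes together had counts of 8662, 9539 and 7981 for MOCK against 8051, 8503 and 8510 for CYGB, with a log2 fold change of -0.09 (standard error 0.09). The summed counts of the locus thus overlapped between the groups, while the counts of PDXP and of Z83844.3 did not. These sums are not divided by transcript length, and Z83844.3-201 (3123 bases) is longer than PDXP-201 (2010 bases). Computed per kilobase, the last exon of PDXP, which both genes share, was 1.69-fold lower in CYGB cells, without overlap of the groups.

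Shares within a library do not depend on library size. PDXP held 52.6 ± 4.46% of the counts of the 3 genes in MOCK and 4.05 ± 0.170% in CYGB cells. Z83844.3 held 0.733 ± 0.196% and 45.6 ± 4.28%, and SH3BP1 held 46.7 ± 4.56% and 50.3 ± 4.20%, respectively (SD, n = 3 each), so the shares of SH3BP1 overlapped between the groups and those of PDXP and Z83844.3 did not. Of the counts of PDXP and Z83844.3 alone, Z83844.3 held 0.997 to 1.60% in the MOCK libraries and 91.2 to 92.8% in the CYGB libraries. The highest MOCK share had a 95% Wilson interval of 1.28 to 1.99%, and the lowest CYGB share one of 90.3 to 92.0%, which cover counting error only. No library lay between the groups. Divided by transcript length, these shares averaged 0.887 ± 0.212% in MOCK and 87.8 ± 1.22% in CYGB cells (SD, n = 3 each).

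**Figure D3:**
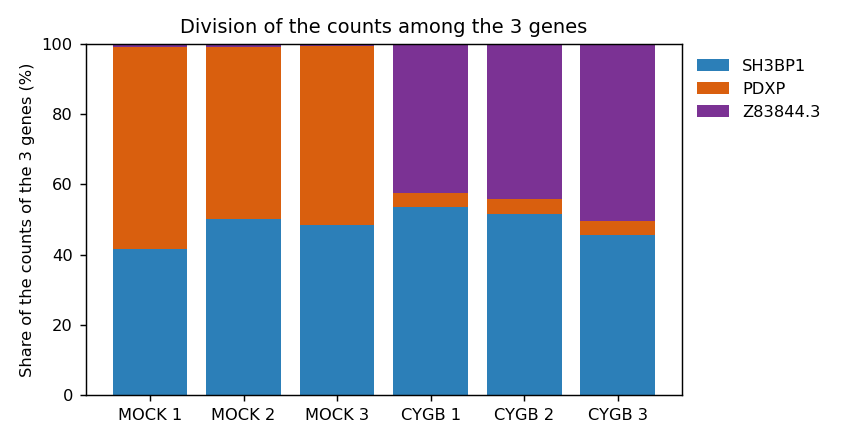
Share in percent of the counts of SH3BP1 (blue), PDXP (orange) and Z83844.3 (purple) among the counts of the 3 genes, by library. SH3BP1 holds 41.5 to 53.7% throughout, while the rest is nearly all PDXP in the MOCK libraries and nearly all Z83844.3 in the CYGB libraries.

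Levels of different transcripts can be compared per length. PDXP-201 was at 45.3 ± 6.63 CPM per kilobase in MOCK, above SH3BP1-201 at 26.8 ± 3.05 and Z83844.3-201 at 0.413 ± 0.140 (SD, n = 3 each), and the libraries of these transcripts did not overlap. In CYGB cells, SH3BP1-201 was at 27.4 ± 3.02 and Z83844.3-201 at 23.8 ± 2.29 CPM per kilobase, and their libraries overlapped, whereas PDXP-201 was lowest at 3.23 ± 0.209 (SD, n = 3 each).

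The deposited assignment also implies a depth for each kind of exon, if the counts of a transcript are spread evenly along it. This is arithmetic on the counts, since reads were not analysed here. The first exon of PDXP-201, which no other transcript of the locus contains, came to 45.3 ± 6.63 CPM per kilobase in MOCK and 3.23 ± 0.209 in CYGB cells, 0.0715 of the MOCK value. The last exon of PDXP, which Z83844.3 shares, came to 45.8 ± 6.82 and 27.1 ± 2.29, or 1.69-fold lower. The SH3BP1 exons that Z83844.3 shares came to 28.8 ± 2.96 and 52.7 ± 1.19, or 1.83-fold higher. The last exon of SH3BP1-201, which Z83844.3 lacks, came to 27.0 ± 3.07 and 27.5 ± 2.96 (SD, n = 3 each). The libraries of the groups did not overlap for the first 3 of these exon kinds and overlapped for the last. Whether the reads themselves have this profile was not tested.

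**Figure D4:**
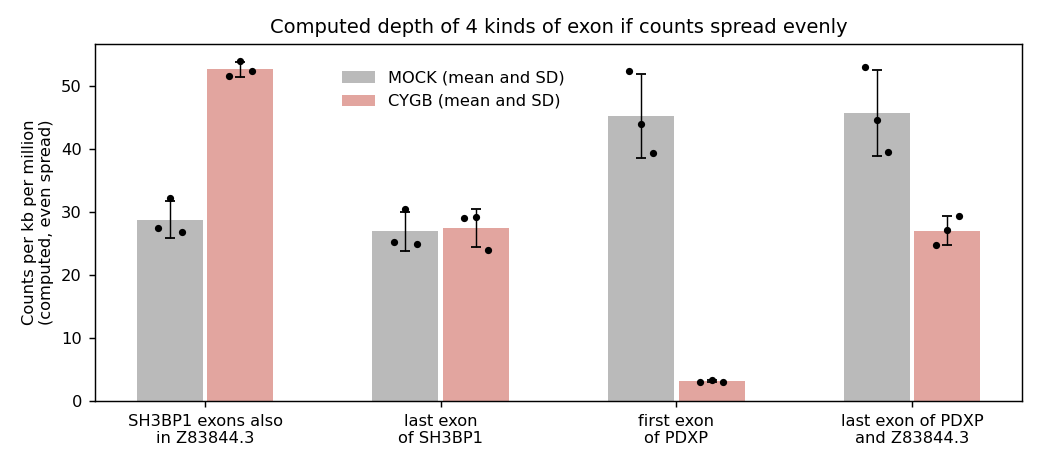
Depth in CPM per kilobase, computed from the transcript counts under even spread, of 4 kinds of exon in MOCK (grey) and CYGB (red); dots are libraries, bars means, whiskers SD. The first exon of PDXP-201 is at 0.0715 of its MOCK mean in CYGB, and the SH3BP1 exons also in Z83844.3 are 1.83-fold higher.

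Z83844.2 (ENSG00000233360, chromosome 22 from 37641832 to 37658377) lies on the opposite strand, across exons of SH3BP1, and its span stops before PDXP begins. It had counts of 33, 14 and 8 for MOCK against 11, 32 and 34 for CYGB, and the groups overlapped (log2 fold change 0.42, standard error 0.69, adjusted p = 0.976 in the edgeR test). The sources do not state that counting used strand, so reads of Z83844.2 and those of SH3BP1 or Z83844.3 in the shared bases cannot be told apart.

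Genes within 250 kb of the locus were examined next. Of 22 such genes in the table, 17 were tested, and their log2 fold changes ran from -0.75 to 1.25 with a median of 0.06, against -0.01 for all genes tested. GGA1, the gene upstream of SH3BP1 and an adaptor of trafficking from the Golgi, had 28.8 ± 8.81 CPM in MOCK against 22.5 ± 6.90 CPM in CYGB cells (SD, 3 libraries each). LGALS1, the next protein-coding gene downstream of PDXP, encodes the sugar-binding galectin-1 and had 788 ± 47.0 CPM in MOCK against 812 ± 95.5 CPM in CYGB cells (SD, 3 libraries each). With edgeR's quasi-likelihood test, 0 of the 17 were called by either threshold, against 0.565% and 0.055% of all genes. An unadjusted p under 0.05 was found for 2 of the 17, against 907 of all 19987 genes tested. The 2 neighbours were the protein coding ELFN2, an inhibitor of protein phosphatase 1 (log2 fold change 1.25, standard error 0.46), and CARD10, a scaffold of NF-kB signalling (0.21, standard error 0.08). DESeq2 called 1 of the 17 at the threshold of the methods, ELFN2, and 0 at an adjusted p under 0.05. Of all 19987 genes, DESeq2 called 263 and 108.

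PDXK and PLPBP, which make and carry PLP, had log2 fold changes close to 0. PDXK, the kinase that phosphorylates pyridoxal and so works opposite to PDXP, had 204 ± 8.34 CPM in MOCK against 192 ± 20.6 CPM in CYGB cells. PLPBP, a PLP-binding homeostasis protein, had 67.6 ± 2.88 and 66.8 ± 3.61 CPM (SD, n = 3 each). Their log2 fold changes were -0.09 and -0.02, with standard errors of 0.10 and 0.09. Over the 8 tested genes of a list on vitamin B6, the median was 0.05 and the range ran from -0.09 to 0.54.

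Among 34 tested enzymes that use PLP as cofactor, the median log2 fold change was 0.02 and the range ran from -0.69 to 0.91. ODC1, the first enzyme of polyamine synthesis, was at a log2 fold change of 0.03 (standard error 0.08). SHMT2, the mitochondrial serine hydroxymethyltransferase, was at -0.01 (standard error 0.07), and the liver glycogen phosphorylase PYGL at 0.08 (standard error 0.07). An unadjusted p under 0.05 was found for 2 of the 34, against 907 of all 19987 genes tested. PYGB, the brain form of glycogen phosphorylase, had 171 ± 5.66 CPM in MOCK against 202 ± 16.1 CPM in CYGB cells (SD, n = 3 each, adjusted p = 0.963 in the edgeR test). ABAT, which breaks down GABA, had 15.4 ± 1.84 and 11.3 ± 1.17 CPM (SD, n = 3 each, adjusted p = 0.963 by the same edgeR test).

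Of 14 phosphatases of the HAD type that act on small molecules, PGP is the closest relative of PDXP. Its level was 73.4, 52.4 and 21.7 CPM in MOCK replicates 1 to 3 and 20.0, 18.1 and 23.3 CPM in CYGB replicates 1 to 3, so MOCK replicate 3 lay among the CYGB libraries. It changed by -1.26 on the log2 scale (standard error 0.43), with an unadjusted p under 0.05 and an adjusted p of 0.963 in the edgeR test. HDHD5, ENOPH1 and PMM2, those with the highest levels, had log2 fold changes of -0.33, 0.03 and -0.25, with standard errors of 0.16, 0.12 and 0.35. The median over the 14 genes was -0.03, and the range ran from -1.26 to 0.20.

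The cofilin cycle was covered by 22 genes, all tested, with a median log2 fold change of 0.01. CFL1, the main cofilin and a substrate of PDXP, had 932 ± 40.3 CPM in MOCK against 954 ± 38.3 CPM in CYGB cells (SD, 3 libraries each). YWHAZ, a 14-3-3 protein that binds phosphorylated cofilin, was at a log2 fold change of -0.11 (standard error 0.08), and CAP1, which helps to recycle actin, at 0.05 (standard error 0.07). Single genes ran from -0.99 to 0.21. The lowest value was that of ROCK2, with a standard error of 2.06. Its libraries were very uneven, at 1.06, 149 and 0.544 CPM for MOCK against 1.58, 48.3 and 25.5 for CYGB. Other genes of this list were uneven within the groups as well. Among them were WDR1, TESK2 and PAK1, with standard errors of 1.22, 1.18 and 0.56.

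For Rac, Cdc42 and the partners of SH3BP1, the median over 20 tested genes was 0.01 and the range ran from -1.19 to 0.39. CDC42, a GTPase that SH3BP1 switches off, had the lowest value of the list, with 193.6, 110.5 and 101.6 CPM for MOCK against 20.5, 79.8 and 77.9 for CYGB. CYGB replicate 1 stood far below the other libraries, and CDC42 was named after its values were seen. The log2 fold change was -1.19 (standard error 0.54), and the gene passed neither threshold (edgeR adjusted p = 0.963). RAC1, the other GTPase it acts on, was at a log2 fold change of -0.15 (standard error 0.07). WASF2, which links Rac to actin, was at -0.05 (standard error 0.11), and ARHGDIA, which holds Rac and related GTPases in the cytosol, at -0.03 (standard error 0.12).

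With edgeR's quasi-likelihood test, 0 of the 98 tested genes of all 5 lists passed the threshold of the methods. An adjusted p under 0.05 was found for 0 of the 98. The shares over all genes were 0.565% and 0.055%. An unadjusted p under 0.05 was found for 3 of the 98, against 907 of all 19987 genes tested. DESeq2 called 1 of the 98 at the threshold of the methods, PGP, and 0 at an adjusted p under 0.05, against 263 and 108 of all 19987 genes. Protein levels and enzyme activity were not measured in these files.

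**Figure D5:**
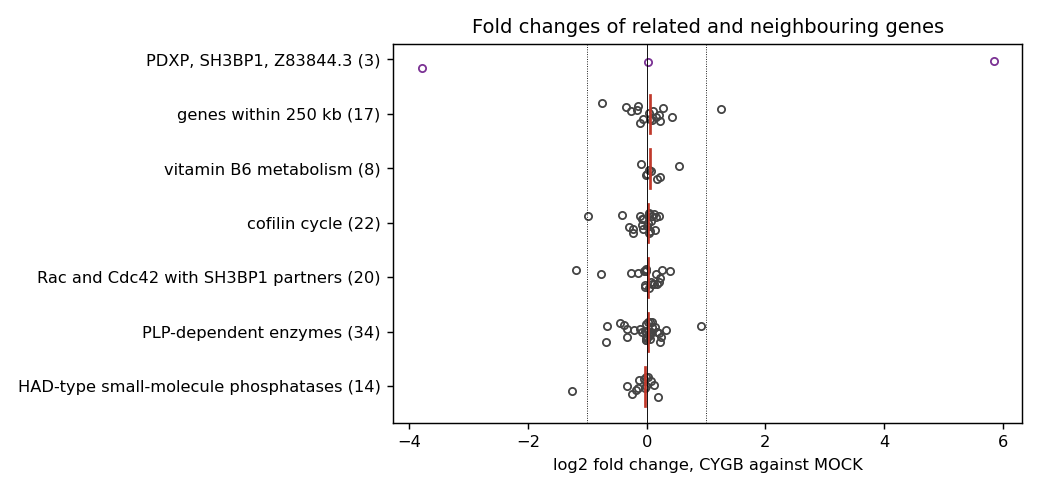
Log2 fold change, CYGB against MOCK, of each tested gene (circles) of the 5 lists, of the 17 tested genes within 250 kb and of the 3 genes of the locus; red bars are medians, dotted lines mark a ratio of 2 in either direction, and vertical jitter has no meaning. PDXP at -3.79 and Z83844.3 at 5.85 lie outside the range of every list and of the neighbouring genes, and SH3BP1 lies at 0.02. PDXP and Z83844.3 were selected for large changes in this contrast, so their position is a description only.

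The genes whose log2 CPM over the 6 libraries was most like that of PDXP, by Pearson's r among the 10152 genes that averaged 10 CPM or more in either group, were KRR1 (r = 0.993), CASTOR3 (r = 0.991) and KDM3A (r = 0.988). KRR1 works in assembly of the small ribosomal subunit and KDM3A removes methyl groups from histone H3. Most like Z83844.3 were MTUS1 (r = 0.998), a microtubule-associated protein, and CNOT9 (r = 0.994), a subunit of the CCR4-NOT complex that shortens poly(A) tails. For SH3BP1 they were ISCA1 (r = 0.975), COX10-AS1 (r = 0.974) and ZNF654 (r = 0.973). Pearson's r does not measure the size of a change. Log2 fold changes were -4.23 for KRR1, -0.32 for CASTOR3 and -2.03 for KDM3A, against -3.79 for PDXP. For MTUS1 and CNOT9 they were 4.09 and 1.23, against 5.85 for Z83844.3. These correlations are a description over 6 points that share the 2 groups.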

How the data were processed

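RNA of 3 MOCK and 3 CYGB libraries was sequenced with paired 150-base reads. The authors' deposited table holds raw read counts for each transcript, not normalized. The submitters' processing notes name HISAT2, HISAT, DESeq2 and build hg19, with no role. The counting tool is not given in the sources used here. GENCODE 29 holds 151393 of the transcripts that carry a gene, 99.5% of them at the position in the table, so coordinates are those of GRCh38. Assembled transcripts without a gene or position (18.6 to 19.5% of counts per library) were left out, so counts of this locus among them were not analysed here.

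Transcripts were summed per gene. Genes and transcripts were kept by edgeR's filterByExpr (minimum count 10), normalized by TMM and tested by the quasi-likelihood test, CYGB against MOCK, with Benjamini-Hochberg adjustment over all features tested (R 4.3.3 with DESeq2 1.42.0, edgeR 4.0.16 and limma 3.58.1, matplotlib 3.10.9 and pandas 2.3.3 in Python 3.11.15). Sums of genes were fitted as added rows. Standard errors are the log2 fold change over the square root of the F statistic. CPM use TMM-scaled totals. Libraries of a group differed by more than sampling noise (chi-square per gene at least 101.5). Each was treated as 1 replicate, although this difference does not show that the libraries are independent. P-values measure only the spread between these libraries, which may come from 1 transduction per group. The steps were tested on simulated data.

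The genes and lists were chosen with earlier results of these data known. Genes named are the 3 genes, their transcripts that averaged 1 CPM or more in either group (PDXP-202 was added as the other PDXP transcript), list genes with an unadjusted p under 0.05 and the 3 with the highest level per list, genes within 250 kb, and the 3 most like each. Among all these, 2 genes are not reported here. The neighbours named, after their values were seen, are those next to the locus, the antisense gene and those with an unadjusted p under 0.05. CDC42, ROCK2, WDR1, TESK2 and PAK1 were also chosen after their values were seen. So were the readthrough genes BLOC1S5-TXNDC5, PPAN-P2RY11, HNRNPUL2-BSCL2 and SYS1-DBNDD2. Alternatives were other size factors, DESeq2, other filters, a replicate block, libraries left out, and assembled transcripts in library sizes.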

Additional observations from a re-analysis of the deposited data

How the results depend on the processing

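Each log2 fold change of the 3 genes and their sums was recomputed under 12 alternatives and moved by less than 1 SD of the libraries in all of them. PDXP ranged from -3.88 to -3.67, Z83844.3 from 5.60 to 6.05, SH3BP1 from -0.02 to 0.12, on both sides of 0, and the sum of PDXP and Z83844.3 from -0.29 to -0.07. PDXP and Z83844.3 passed both thresholds in each alternative, except that with the replicate block 0 of all genes had an adjusted p under 0.05. Over all genes, same-numbered libraries showed little common deviation (correlations of 0.0159, 0.00487 and 0.0253). Such correlations cannot exclude a batch shared by same-numbered libraries in some genes, and whether the numbers pair the samples was not tested. With the replicate block the log2 fold changes were -3.78 for PDXP and 5.89 for Z83844.3. The share of Z83844.3 in the counts of PDXP and Z83844.3 was 1.37% in MOCK and 91.8% in CYGB, and 0.887% and 87.8% with counts divided by transcript length, since Z83844.3-201 is the longer transcript. Among list genes, 0 passed the threshold of the methods, 1 with DESeq2 (PGP) and 0 to 1 with a library left out (PGP without MOCK replicate 3, GPT2 without CYGB replicate 3). The cause was not tested. An adjusted p under 0.05 was found for 0 of them in every alternative. The 41 to 77 counts of Z83844.3 in MOCK limit the precision of its fold change. Over all genes tested with edgeR, 113 passed the threshold of the methods and 11 had an adjusted p under 0.05. These counts were 263 and 108 with DESeq2, 78 and 0 with the replicate block, 62 and 11 for genes with a mean of at least 50 counts, 177 and 13 without MOCK replicate 3, 124 and 6 without MOCK replicate 1, and 130 and 7 without CYGB replicate 3.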

Other observations

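GENCODE 29 tags every transcript of 825 genes as readthrough, and 257 of these were tested. Their median log2 fold change was 0.03. At the threshold of the methods, 6 were higher and 3 were lower in CYGB-overexpressing cells (3.5% of those tested, against 0.565% of all genes), and Z83844.3 was among them. With edgeR's quasi-likelihood test, the only gene of the 257 at an adjusted p under 0.05 was Z83844.3. With the replicate number as a block, edgeR left 0 of all genes there. The other 8 called genes had means of 0 to 4.62 CPM in either group. Large log2 fold changes were also measured in readthrough genes that were not called. BLOC1S5-TXNDC5 was at 4.53, with a mean of 61.0 CPM over the libraries against 37.8 CPM for Z83844.3. Its partners TXNDC5 and BLOC1S5 were at -0.90 and -0.26. PPAN-P2RY11 was at 4.79, with a mean of 9.88 CPM, and its partners PPAN and P2RY11 were at -0.04 and 0.06. Of 456 pairs of a tested readthrough gene and a tested gene with shared exon bases on the same strand, 4 had opposite log2 fold changes of at least 1 on both sides. Pairs that missed this limit narrowly included HNRNPUL2-BSCL2 and HNRNPUL2 (1.03 and -0.97) and SYS1-DBNDD2 and SYS1 (2.02 and -0.91). The pair of BLOC1S5-TXNDC5 and TXNDC5 missed it as well. With a limit of 2 on both sides, 1 pair was left, that of Z83844.3 and PDXP. Both genes were selected for large changes in this contrast, so their place among the pairs follows from that choice. These counts were made after the locus was chosen and were not tested.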
